A study of Mus musculus with 15 samples.

Results

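The 6 genes of thyroid hormone handling and response studied here, Dio2, Dio3, Thra, Thrb, Hr and Klf9, were followed through 15 brain libraries of mice treated with a parkinsonian toxin and candidate therapies. They are 6 of the 45777 gene symbols in each library. They were picked by symbol with their levels in view, because Dio3 had more reads in every library from inhibitor-treated mice than in any other library. Contrasts of inhibitor libraries with the rest are therefore given as a description, with no test.

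The 5 groups had 3 libraries each, from mice of unstated strain, sex and age, after 7 days of acclimation. Controls had a normal diet for 5 weeks. The other 4 groups all received MPTP, a toxin that damages dopamine neurons, at 20 mg/kg/day for 1 week. They then had a normal diet (MPTP group), levodopa at 2 mg/kg/day, or a BTK inhibitor (BTK is Bruton's tyrosine kinase) at a low or a high dose, in each case for 4 weeks. The labels do not name the inhibitor and put its doses at 1 or 2 µg/kg/day in one field and 25 or 50 pM in another. For levodopa one field has an oral and the other an intraperitoneal route. The protocol gives 8 mice per group, but no label ties a library to 1 mouse. The p-values therefore measure only how these libraries vary, which may be technical.

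Thyroid hormone leaves the thyroid mostly as the prohormone T4. Type 2 deiodinase, the product of Dio2, converts T4 to the active hormone T3, in the brain mainly in astrocytes and in tanycytes of the hypothalamus. Type 3 deiodinase, the product of Dio3, inactivates both hormones and is found in neurons. Thra and Thrb encode the nuclear receptors that bind T3, and Hr (a corepressor that binds these receptors) and Klf9 (a zinc finger transcription factor) are known genes that T3 induces in brain.

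The libraries differed in depth, handling and regional markers. The 6 inhibitor libraries held 58149722 to 61998459 reads and the other 9 held 63314658 to 68257095, and the inhibitor files carry 24 empty trailing columns against 51 in the others. Neuron markers were present throughout, with a sum over 7 genes of 4664 to 6225 CPM (reads scaled to the library's total after TMM normalization). No brain region is labelled, and the sum over 7 cerebellum markers was highest in control 2 (7157 CPM) and levodopa 2 (5936 CPM) and lay between 131 and 452 CPM in the other 13. The sum over 8 cortex and hippocampus markers was 248 to 1040 CPM in inhibitor libraries and 43.8 to 723 CPM in the others, and 5 of the 8 were higher in every inhibitor library than in any other. Control 2 (723 CPM) and levodopa 2 (614 CPM) made up the overlap of these sums, and the other 7 libraries without inhibitor reached at most 219.8 CPM.

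Both deiodinases are selenoproteins: a TGA codon, which elsewhere ends translation, is read as selenocysteine in their catalytic site. The codon is shown with its coding context because it is the feature these enzymes share beyond their substrate. The strands below run 5′ to 3′ with the selenocysteine codon in capitals, from GENCODE M21 transcripts on GRCm38. The Dio2 stretch is chr12:90729799-90729849 on the minus strand, in exon 2 of 2, and the Dio3 stretch is chr12:110279715-110279765 on the plus strand, in exon 1 of 1. They are identical at 31 of 51 bases (60.8%). A further annotated selenocysteine codon of Dio2, at chr12:90729424-90729426, is not shown.
Dio2: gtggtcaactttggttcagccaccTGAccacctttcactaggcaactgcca
Dio3: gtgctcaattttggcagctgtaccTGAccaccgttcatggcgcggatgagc

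The promoter windows of both enzyme genes are shown for their base composition and motifs. Each run below is the 250 bases before the RefSeq start (GRCm38.p6) in the gene's direction, with capitals for matches to TATAAA (the TATA box), to GGGCGG (the core of a GC box, also searched on the opposite strand, where it reads CCGCCC) and to TGACGTCA (the full cyclic AMP response element). The Dio3 window (chr12:110278980-110279229, plus strand) had 69.6% G and C, and the Dio2 window (chr12:90739039-90739288, minus strand) had 41.6%, against a median of 52.4% over 32851 promoter windows of the same length. GENCODE M21 places these starts elsewhere. It begins Dio3 at chr12:110279068, so that part of the Dio3 window lies inside the gene as annotated there. It begins Dio2 at chr12:90738438, downstream of the Dio2 window.
Dio3: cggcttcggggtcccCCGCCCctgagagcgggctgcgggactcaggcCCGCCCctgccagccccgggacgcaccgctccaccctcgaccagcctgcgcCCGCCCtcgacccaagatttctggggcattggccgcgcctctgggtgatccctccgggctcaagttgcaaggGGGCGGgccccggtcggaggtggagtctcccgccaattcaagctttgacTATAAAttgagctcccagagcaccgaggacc
Dio2: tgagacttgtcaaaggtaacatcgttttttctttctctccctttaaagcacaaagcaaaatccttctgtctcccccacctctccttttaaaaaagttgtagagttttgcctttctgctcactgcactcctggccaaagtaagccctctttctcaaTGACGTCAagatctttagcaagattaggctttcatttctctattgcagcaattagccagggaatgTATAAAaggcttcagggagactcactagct

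Both windows held the TATA box, beginning 31 bases before the RefSeq start in Dio3 and 30 in Dio2. It occurred on either strand in 12.37% of all promoter windows. Dio3 held the GC box core 4 times, 3 of them on the opposite strand, and 32.74% of windows held it at least once. Dio2 held the cyclic AMP response element, which reads the same on both strands, 95 bases before its start, and 1.546% of windows held it. The receptor half-site AGGTCA, in 14.02% of windows on either strand, had no match in the Dio2, Dio3 or Klf9 window and 1 match in the 2 Thrb windows. These matches describe letters, with no measure of binding.

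Dio3 was the least abundant of the 6 genes and had the widest range. In controls 1, 2 and 3 it had 22, 2 and 4 reads, after MPTP 7, 24 and 13, and after levodopa 6, 4 and 32. With the low inhibitor dose it had 137, 150 and 91 reads, and with the high dose 78, 58 and 61. All low-dose libraries were above all high-dose libraries, and these were above the other 9, as the choice of Dio3 fixed for the inhibitor libraries. The last library inside that boundary was high-dose 2, with 58 reads (95% exact Poisson interval 44.0 to 75.0, counting error only, 0.968 CPM), and the first outside it was levodopa 3, with 32 reads (21.9 to 45.2, 0.465 CPM).

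As group means, Dio3 stood at 2.11 ± 0.454 CPM with the low dose and 1.09 ± 0.161 CPM with the high dose (SD, n = 3 each). The other means were 0.140 ± 0.162 CPM in controls, 0.216 ± 0.126 CPM after MPTP and 0.206 ± 0.225 CPM after levodopa (SD, n = 3 each), values that lay within the spread of those groups. In the fit over all genes, the log2 fold change of the low dose against MPTP was 3.28 (SE 0.80) and that of the high dose 2.32 (SE 0.78). Against controls the values were 3.89 (SE 0.84) and 2.93 (SE 0.81), and without control 1 they became 5.45 and 4.49. These comparisons share libraries. All 6 genes passed the filter on low counts, Dio3 with 6 inhibitor libraries and 4 others at or above the filter's level of 0.155 CPM. In these bulk libraries a change in the share of a cell type and a change in RNA per cell cannot be told apart.

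**Figure D1:**
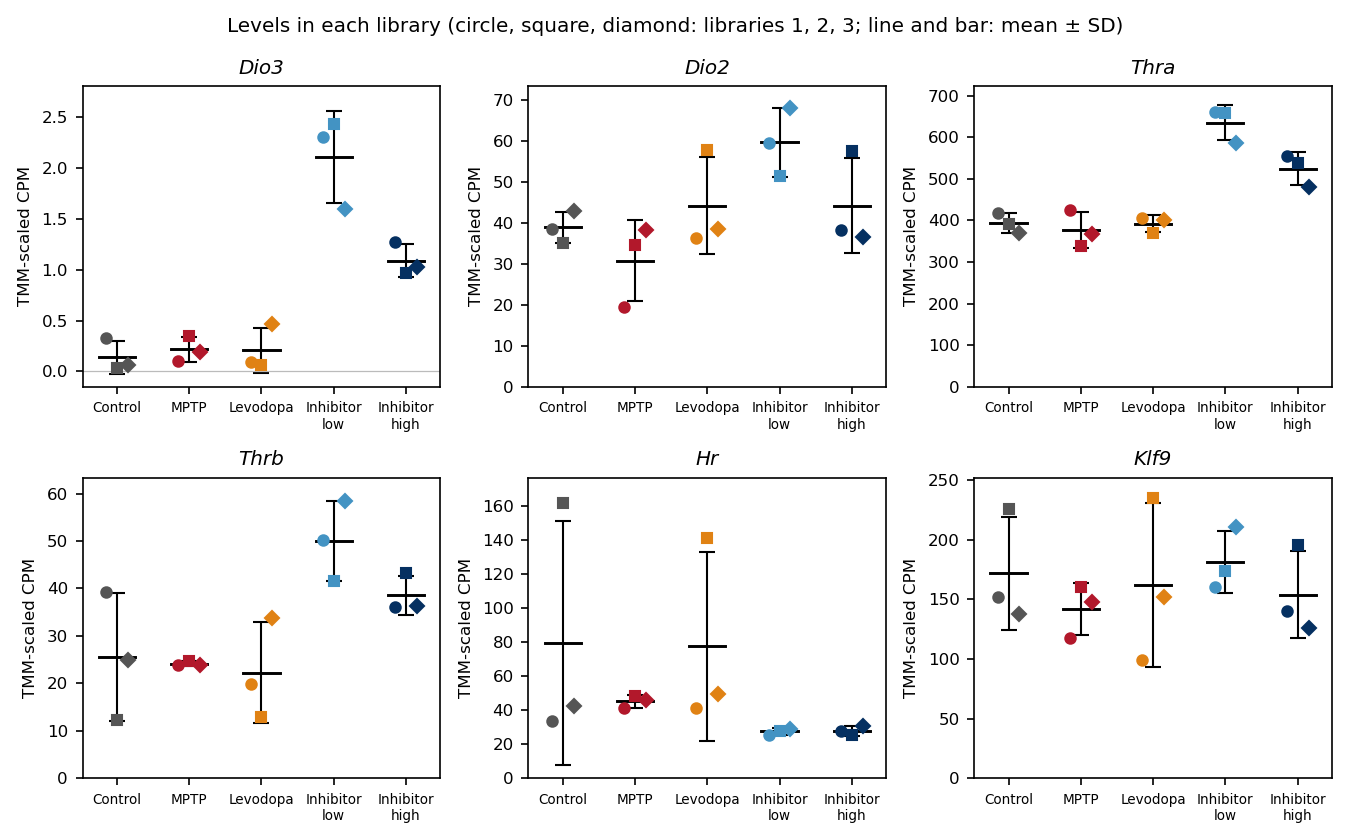
Levels of the 6 genes in TMM-scaled CPM (y axis, linear) by group (x axis), 1 point per library, with a line for the group mean and a bar for ± SD (n = 3). Dio3 was 0.968 to 2.44 CPM in inhibitor libraries against 0.0328 to 0.465 CPM elsewhere, while the top Hr points are control 2 (162 CPM) and levodopa 2 (142 CPM).

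Dio2, the activating enzyme, overlapped between the inhibitor libraries and the rest. Controls had 38.6, 35.2 and 42.9 CPM, MPTP libraries 19.5, 34.7 and 38.3 CPM, and levodopa libraries 36.3, 57.9 and 38.6 CPM. The low dose gave 59.5, 51.4 and 68.04 CPM and the high dose 38.4, 57.6 and 36.7 CPM. All 3 low-dose libraries were above every control and MPTP library, and MPTP 1 was the lowest of the 15. The log2 fold change against MPTP was 0.95 (SE 0.26) with the low dose and 0.52 (SE 0.26) with the high dose. Astrocyte markers, 7 genes of the main cell type with Dio2, summed to 3822 to 4555 CPM in inhibitor libraries and 3676 to 5420 CPM in the others. Tanycyte markers, 6 genes with Crym among them, summed to 58.3 to 131 CPM against 20.1 to 59.1 CPM. Without Crym, described with the transport genes, the sums overlapped (17.6 to 33.3 CPM against 16.9 to 36.7 CPM), with Rax, a defining tanycyte gene, at 0 in some control, levodopa and low-dose libraries. The part of these cells in the Dio2 values was not tested.

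The balance of activating to inactivating enzyme transcript was lower in inhibitor libraries, as the choice of Dio3 implies. Per kilobase of the longest coding transcript, the Dio2 level was 7.36 to 20.8 times the Dio3 level in inhibitor libraries and 28.95 to 373.7 times in the others. The lowest of the latter, levodopa 3, MPTP 2 and control 1, were the libraries with 32, 24 and 22 Dio3 reads. Over all 15 libraries the per-kilobase median was 6.63 CPM for Dio2 and 0.173 CPM for Dio3.

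Thra, the receptor gene with the highest level of the 6 per kilobase, was also higher in every inhibitor library. It stood at 418, 391 and 370 CPM in controls, 424, 340 and 367 CPM after MPTP and 407, 369 and 401 CPM after levodopa. The low dose gave 660, 658 and 586 CPM and the high dose 554, 538 and 479 CPM. The inhibitor groups overlapped neither with the rest nor with each other, and the other 3 groups overlapped. The log2 fold change against MPTP was 0.75 (SE 0.11) with the low dose and 0.47 (SE 0.11) with the high dose. Thra shares 1075 bases with Nr1d1, the clock repressor Rev-erb alpha on the opposite strand. Nr1d1 ran from 60.2 to 78.0 CPM in inhibitor libraries and 56.5 to 153 CPM in the others, and how reads were assigned to strands is not given in the sources used here.

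Thrb, the second receptor gene, stood at 39.2, 12.2 and 25.0 CPM in controls, 23.8, 24.8 and 23.9 CPM after MPTP and 19.9, 13.0 and 33.9 CPM after levodopa. Low-dose libraries had 50.2, 41.6 and 58.4 CPM and high-dose libraries 36.1, 43.3 and 36.3 CPM. Control 1 lay among the high-dose libraries, and the lowest values were those of control 2 and levodopa 2, which had the high cerebellum markers. The log2 fold change against MPTP was 1.05 (SE 0.37) with the low dose and 0.68 (SE 0.37) with the high dose. Per kilobase, Thra was 25.4 to 40.0 times as high as Thrb in inhibitor libraries and 27.0 to 80.8 times in the others, with the 2 top ratios in control 2 (80.8) and levodopa 2 (71.7). The Thrb locus also holds the antisense gene Gm48321, overlapping it by 90772 bases.

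The T3-induced genes Hr and Klf9 differed from each other. Hr had 33.7, 162 and 42.0 CPM in controls, 41.0, 48.4 and 45.7 CPM after MPTP and 41.0, 142 and 49.6 CPM after levodopa. It had 25.0, 27.8 and 29.0 CPM with the low dose and 27.4, 24.9 and 30.6 CPM with the high dose. Every inhibitor library was below every other, and without control 2 and levodopa 2 the other libraries still ran from 33.7 to 49.6 CPM. The log2 fold change was -0.73 (SE 0.54) for the low dose and -0.70 (SE 0.54) for the high dose against MPTP. Against controls it was -1.54 (SE 0.55) and -1.52 (SE 0.55), and without control 2 these became -0.48 and -0.46.

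Klf9 overlapped throughout. Its values were 152, 226 and 138 CPM in controls, 118, 160 and 148 CPM after MPTP, and 98.9, 235 and 152 CPM after levodopa. The low dose gave 160, 174 and 210 CPM and the high dose 140, 195 and 126 CPM. Control 2 and levodopa 2 were the highest libraries, as for Hr, and levodopa 1 the lowest. The log2 fold change against MPTP was 0.36 (SE 0.29) with the low dose and 0.12 (SE 0.29) with the high dose.

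Read over all genes, Dio3 and Thra were 2 of the 6 members above, and Hr the member below, in every inhibitor library against every other. Of the 21821 genes tested, 4.69% were above and 3.87% below in this way. The choice of members used this contrast, so nothing is read from their count.

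**Figure D2:**
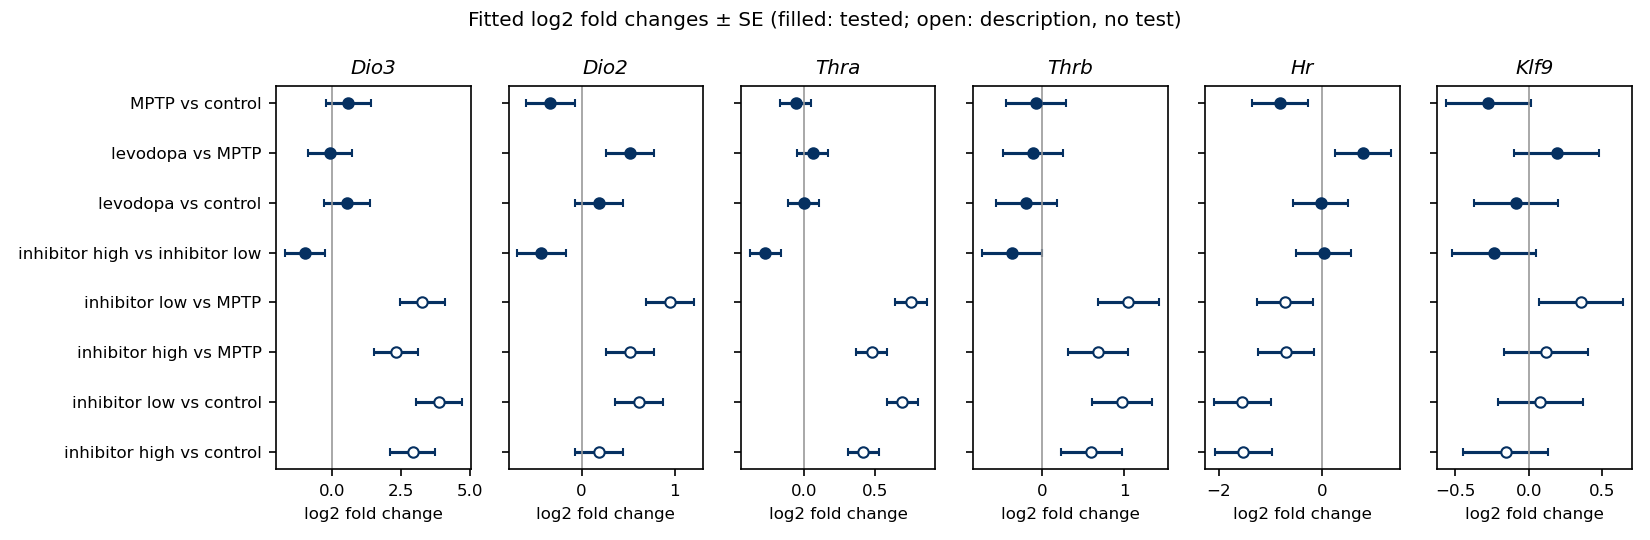
Fitted log2 fold changes of the 6 genes (x axis, each panel with its own scale) in 8 comparisons (y axis), with bars for ± SE. Open points are contrasts the choice of genes used and have no test; of the filled points none passed the threshold of 0.05 on the adjusted p, and the Dio3 points run from -0.96 (high against low dose) to 3.89 (low dose against controls).

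The 2 inhibitor doses gave a contrast that the choice of genes did not use. None of the 6 members passed in edgeR's quasi-likelihood test (adjusted p = 1 for each), and 0% of all genes did. DESeq2 called 0 members, and 1 member (Thra) had an unadjusted p under 0.05, as had 2.23% of genes. Thra was lower in all 3 high-dose libraries than in any low-dose library, with a log2 fold change of -0.28 (SE 0.11, adjusted p = 1 in edgeR). Dio3 was likewise lower in all 3, at -0.96 (SE 0.73, adjusted p = 1 in edgeR), and 5.34% of genes were below without overlap. The values were -0.43 (SE 0.26) for Dio2, -0.38 (SE 0.37) for Thrb, -0.24 (SE 0.29) for Klf9 and 0.02 (SE 0.54) for Hr, whose groups overlapped. On counts simulated for this comparison, the test recovered 24 of 100 genes given a 2-fold change and 71 of 100 given a 4-fold change, and made 4 false calls over 21408 genes. Apart from the given changes, all simulated libraries shared a common mean per gene, so regional differences between libraries were absent. Only genes above a set expected count were changed, so recovery in the real libraries may differ.

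MPTP alone, against controls, called none of the 6 genes in edgeR (adjusted p from 0.717 to 0.954), with 0 at an unadjusted p under 0.05 and 0 by DESeq2. The same test called 0% of all genes, and 6.62% had an unadjusted p under 0.05. Hr had the log2 fold change farthest from 0, at -0.82 (SE 0.54), and without control 2 it was 0.25. Dio3 was at 0.61 (SE 0.82) and at 2.17 without control 1, which held 22 of the 28 Dio3 reads of the controls. Dio2 was at -0.33 (SE 0.26), Klf9 at -0.28 (SE 0.29), Thrb at -0.08 (SE 0.37) and Thra at -0.06 (SE 0.11).

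Levodopa after MPTP, against MPTP alone, also called none of the 6 (adjusted p from 0.954 to 0.996 in edgeR), with 0 at an unadjusted p under 0.05 and 0 by DESeq2. The background was 0% of genes called and 2.96% with an unadjusted p under 0.05. The largest changes were those of Hr at 0.78 (SE 0.54), which was 0.0014 without levodopa 2, and Dio2 at 0.52 (SE 0.26). Dio3 was at -0.06 (SE 0.80), and at -1.46 without levodopa 3. Against controls, levodopa gave 0 calls among the 6 (adjusted p = 1 in edgeR), 0 at an unadjusted p under 0.05 and 0 by DESeq2, with 0% and 3.74% of genes as background. Dio3 was there at 0.55 (SE 0.82), Thra at -0.0032 (0.00895 with upper-quartile normalization) and Hr at -0.04.

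Other genes of the pathway were taken as 6 lists with 45 genes, of which 43 passed the filter. In edgeR 2 of 43 rose and none fell in the low dose against MPTP (4.65%, beside 8.53% of all genes). In the high dose against MPTP 1 of 43 rose (2.33%, beside 1.97%). In the low dose against controls 0 passed (5.4% of all genes), with 6 at an unadjusted p under 0.05 (24.4% of all genes) and 2 by DESeq2. In the high dose against controls 0 passed (0.376% of all genes), with 6 at an unadjusted p under 0.05 (20% of all genes) and 0 by DESeq2. In the other 4 comparisons none passed, with 5 (MPTP against controls), 2 (levodopa against MPTP), 2 (levodopa against controls) and 0 (high against low dose) at an unadjusted p under 0.05, while DESeq2 made 1, 0, 1 and 0 calls. Without control 2 and levodopa 2, edgeR called 12 of these genes in the low dose against MPTP (beside 23.7% of all genes tested in that setting) and 8 in the high dose against MPTP (11.1%). It called 2 in the low dose against controls (8.33%) and 1 in the high dose against controls (0.739%). For DESeq2 the share of all genes called was not counted.

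Of 7 genes of transport and binding 1 rose, with either dose against MPTP. Ttr, which encodes the T4 carrier transthyretin and is made in choroid plexus, rose against MPTP by 8.32 (SE 1.42, adjusted p = 0.00706 in edgeR) with the low dose and 7.82 (SE 1.39, adjusted p = 0.0229) with the high dose. The inhibitor libraries had 258 to 1414 CPM, and elsewhere Ttr was between 1.20 and 857 CPM. Controls had 45.3 to 857 CPM, with 857 CPM in control 3, and all lay above the MPTP libraries (1.20 to 7.64 CPM). Against controls neither dose passed, at 1.79 (SE 1.06, adjusted p = 0.319 in edgeR) with the low and 1.29 (SE 1.04, adjusted p = 0.503) with the high dose. MPTP against controls was at -6.53 (SE 1.31) and did not pass in edgeR (adjusted p = 0.717). With the high dose the call was lost without MPTP 1, 2 or 3 or high-dose 2 or 3. The 7 choroid plexus markers, Ttr among them, summed to 298 to 1474 CPM and 20.0 to 948 CPM. Ttr itself made up most of this sum in inhibitor libraries, so there the sum is no separate measure of choroid plexus. No marker of the list, taken alone, separated inhibitor libraries from the others. By median, Otx2 was lower in inhibitor libraries (7.87 against 15.1 CPM) and the rest of the list was higher. The part of choroid plexus in the Ttr values was not tested.

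Crym, encoding the cytosolic T3-binding protein mu-crystallin, had 41.1, 0 and 3.16 CPM in controls, 1.04, 6.68 and 0.550 CPM after MPTP and 0.748, 0.467 and 14.0 CPM after levodopa. It had 82.9, 98.0 and 65.6 CPM with the low dose and 43.2, 55.3 and 40.8 CPM with the high dose, so that only control 1 reached the inhibitor range. Its log2 fold change of 4.90 (SE 1.79) in the low dose against MPTP did not pass in edgeR's fit of all 15 libraries (adjusted p = 0.107). It passed at about the same size without control 2 and levodopa 2 (4.89, adjusted p = 0.0114 in edgeR) and in a fit of the compared groups alone (4.90, adjusted p = 0.00353), and DESeq2 called it too (adjusted p = 0.0286). Among the 9 other libraries, control 1, MPTP 2 and levodopa 3 were the highest in Crym and also in Dio3. Slc7a5, the LAT1 amino acid transporter that also carries thyroid hormone, stood at 49.6 ± 3.81 CPM after MPTP and 32.9 ± 5.59 CPM with the low dose (SD, n = 3). Controls had 33.0 ± 12.2 CPM (SD, n = 3), the level of the low dose. In the fit of all 15 libraries the low dose against MPTP did not pass (adjusted p = 0.106 in edgeR). Against controls its log2 fold change was -0.01 (SE 0.22) with the low and -0.02 (SE 0.22) with the high dose, and that of MPTP was 0.59 (SE 0.22). Against MPTP, Slc7a5 passed as lower without control 2 and levodopa 2 (adjusted p = 0.00895 with the low and 0.0182 with the high dose, in edgeR). It also passed as lower against MPTP in fits of the compared groups alone (0.0199 and 0.0118). Shares of all genes called were not counted for DESeq2 or for fits of the compared groups alone.

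**Figure D3:**
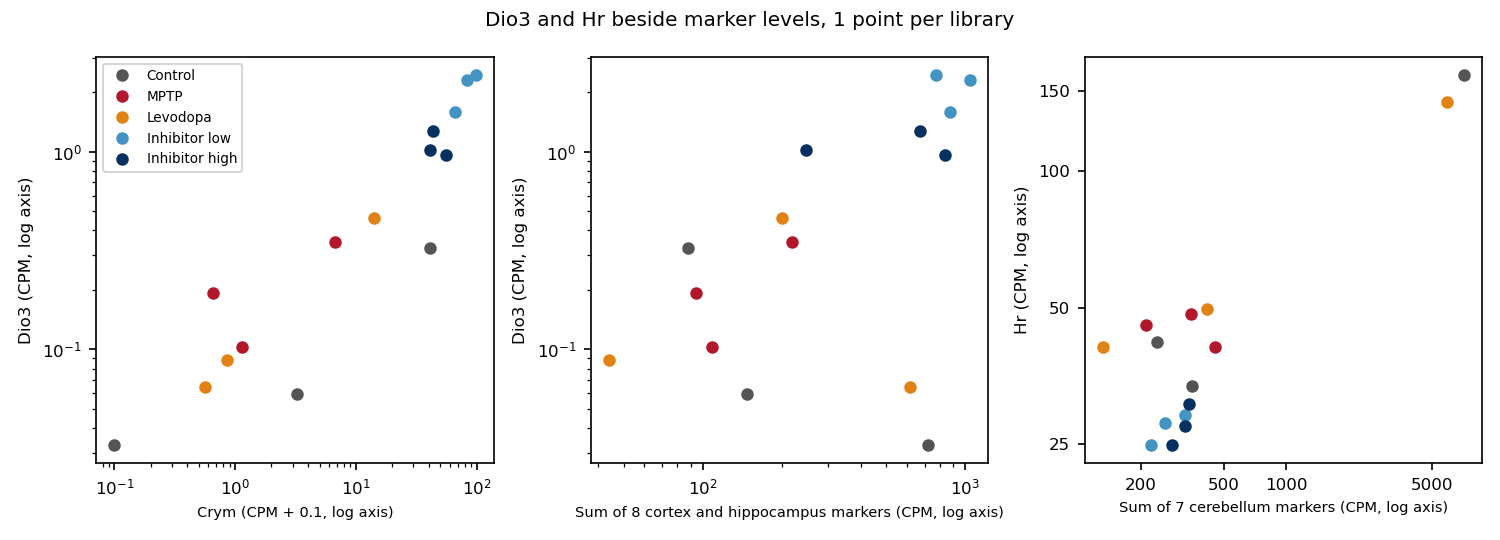
Dio3 against Crym and against the sum of 8 cortex and hippocampus markers, and Hr against the sum of 7 cerebellum markers (CPM, all axes logarithmic), 1 point per library. Inhibitor libraries lie at the top right of the Crym panel, control 2 and levodopa 2 have high cortex and hippocampus sums (723 and 614 CPM) with 2 and 4 Dio3 reads, and the same libraries stand alone in the Hr panel.

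Of the 4 measured genes of selenoprotein synthesis, 1 rose. Eefsec, the elongation factor that brings selenocysteine to the ribosome, had 13.1 to 16.1 CPM in inhibitor libraries and 9.43 to 12.1 CPM in the others, without overlap. It rose in the low dose against MPTP by 0.54 (SE 0.12, adjusted p = 0.0203 in edgeR), and its 0.47 (SE 0.12) in the high dose did not pass (adjusted p = 0.0649). The low-dose call was lost without MPTP 1, 2 or 3 or low-dose 1. With the high dose against MPTP, Eefsec passed in edgeR with the filter of 5 CPM in 3 libraries (adjusted p = 0.0406). It also passed there in the fit of the compared groups alone (0.0223) and without control 2 and levodopa 2 (0.022). DESeq2 called Eefsec with the high dose against MPTP (adjusted p = 0.00433) and with the low dose against controls (0.0242). Dio1, the deiodinase of liver and kidney, had 0 to 6 reads per library and was not tested.

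None of 12 receptor partners and coregulators, 9 other T3-responsive brain genes or 5 measured genes of the thyroid axis passed in any comparison in edgeR's fit of all 15 libraries. Nrgn, encoding the postsynaptic protein neurogranin, had 213 to 921 CPM in inhibitor libraries, 2.56 to 226 CPM elsewhere and a log2 fold change of 3.05 (SE 1.02, adjusted p = 0.0811 in edgeR) in the low dose against MPTP. Rxrg, a retinoid X receptor that pairs with thyroid hormone receptors, was at 1.82 (SE 1.07, adjusted p = 0.311). Without control 2 and levodopa 2, edgeR called 7 genes of these lists in the low dose against MPTP. Nrgn (adjusted p = 0.00175), Camk4 (0.00532), Thrsp (0.0169), Rasd2 (0.0464), Rxrg (0.0262) and Trhde, the enzyme that degrades TRH (0.0103), were higher, and Flywch2 (0.0411) was lower. In the high dose against MPTP Nrgn (0.0151), Camk4 (0.0481), Thrsp (0.0234) and Trhde (0.00943) were higher. Against controls Thrsp (0.0174 with the low and 0.0444 with the high dose) and, with the low dose, Nrgn (0.0491) were higher. The fit of the high-dose and MPTP groups alone also called the retinoid X receptor genes Rxra (lower, adjusted p = 0.0406 in edgeR), Rxrb (higher, 0.0432) and Rxrg (higher, 0.043). The share of all genes called in that fit was not counted.

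**Figure D4:**
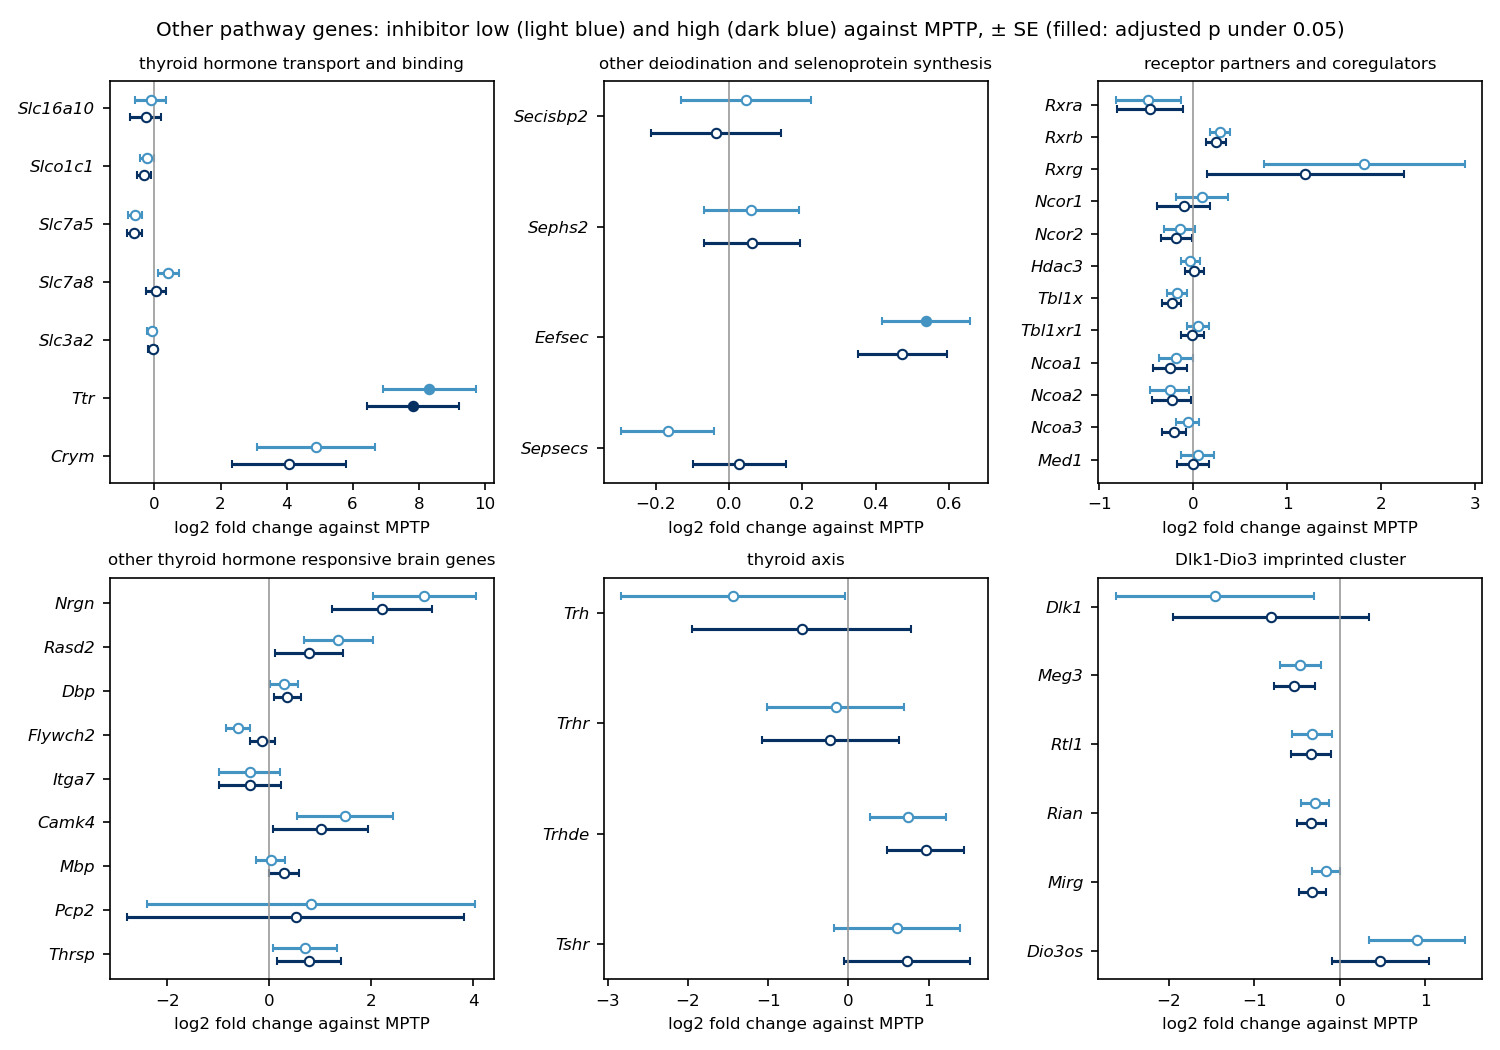
Log2 fold changes against MPTP (x axis, each panel with its own scale) of the other pathway genes with ± SE bars, light blue for the low and dark blue for the high dose, filled where the adjusted p was under 0.05. The filled points are Eefsec (0.54) and Ttr (8.32) with the low dose and Ttr (7.82) with the high dose; Cga, at 0 in all MPTP libraries, is not drawn.

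Dio3 lies at the distal end of the Dlk1-Dio3 imprinted cluster, where it is expressed mainly from the paternal copy. None of the 6 other cluster genes passed in any comparison in edgeR's fit of all 15 libraries. In the low dose against MPTP the median of their log2 fold changes was -0.31, with Dlk1 (a paternally expressed Notch-related protein) at -1.46 (SE 1.16), Meg3 at -0.47 (SE 0.24), Rtl1 at -0.33 (SE 0.24), Rian at -0.29 (SE 0.17) and Mirg at -0.16 (SE 0.16). Dio3os, transcribed from the opposite strand, with 895 bases between the GENCODE M21 starts of the genes, was at 0.90 (SE 0.56). Its 13 to 31 reads in inhibitor libraries lay within the 8 to 37 of the others. Dlk1 passed as lower in the low dose against MPTP without control 2 and levodopa 2 (adjusted p = 0.0174 in edgeR) and in the fit of those groups alone (0.0199). Meg3 (adjusted p = 0.036 in edgeR) and Rian (0.0399) passed as lower in the high dose against MPTP in the fit of those groups alone. For fits of the compared groups alone the share of all genes called was not counted.

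**Figure D5:**
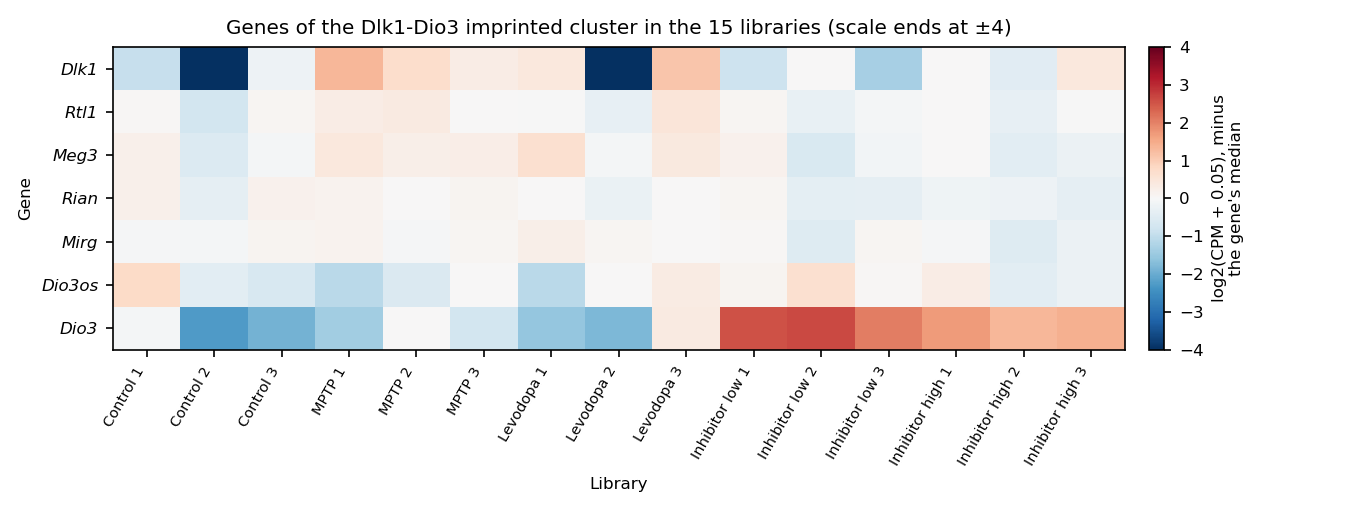
Genes of the Dlk1-Dio3 cluster (rows) in the 15 libraries (columns), as log2(CPM + 0.05) minus the gene's median, on a colour scale that ends at ±4. The Dio3 row is red in the 6 inhibitor libraries, and Dlk1 in control 2 and levodopa 2 lies beyond the blue end of the scale.

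Across the 15 libraries, which share their depth and regional differences, Dio3 correlated with Thrb at r = 0.89, with Thra at 0.85, with Hr at -0.76 and with Klf9 at 0.08 (Pearson, log2 CPM, a description over n = 15). Hr and Thrb had the strongest opposite pattern, at r = -0.90. Of 13828 genes searched, those most like Dio3 were Oaf (r = 0.951), Mast3, Hspa2, Dlgap3 and Zdhhc23 (0.944 for the last). Most like Thra were Wsb2 (0.973), Mmp17 and Slc7a4, and most like Thrb were Pgam2 (0.983), Ctxn1 and Zfp365. Hr had Ank2 (0.985), Trim67 and Snrk, Klf9 had Zfand5 (0.950), Zfp148 and Abhd13, and Dio2, with the lowest values, had AI429214 (0.859), Zcchc10 and Setmar. The genes named for Hr and Klf9 were all highest in control 2 and levodopa 2.

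Marker levels differed between the same libraries. Neurod6, encoding a transcription factor of excitatory neurons in cortex and hippocampus, was 20.0 to 93.3 CPM in inhibitor libraries and 0.980 to 7.03 CPM in the others. Neuronal activity markers, 7 genes, summed to 366 to 783 CPM and 140 to 411 CPM. Of these, Arc (104 to 214 and 12.8 to 72.6 CPM) and Junb (37.3 to 69.1 and 9.47 to 31.4 CPM) did not overlap between the library sets. Of all genes tested, 4.69% were above in this way. Fos (22.0 to 44.9 and 22.5 to 64.6 CPM), Egr1, Npas4, Nr4a1 and Fosb overlapped. By median, Fosb was lower in inhibitor libraries (8.03 against 11.5 CPM). Endothelial and pericyte markers summed to 182 to 263 CPM and 239 to 488 CPM. Striatum markers (432 to 1391 and 134 to 2117 CPM), thalamus and midbrain markers (191 to 678 and 188 to 1411 CPM), hypothalamus markers (22.7 to 409 and 1.08 to 629 CPM) and microglia markers (260 to 302 and 115 to 340 CPM) overlapped. Oligodendrocyte (10320 to 17410 and 6551 to 16429 CPM) and leptomeningeal markers (58.7 to 156 and 55.7 to 182 CPM) overlapped too, and mitochondrial ribosomal RNA took 0.937 to 1.48% of inhibitor-library reads against 0.244 to 0.88%. The part of these differences in the values of the 6 genes was not tested.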

How the data were processed

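Messenger RNA libraries (TruSeq Stranded mRNA, per the labels' protocols) of mouse brain were analysed from whole-number read counts per gene symbol, as deposited by the authors. The submitters' processing notes list HISAT2 2.1.0, StringTie 2.1.3b, Trimmomatic and bcl2fastq 2.20.0, with the GRCm38/mm10 build. Annotation, strand setting and the treatment of shared reads: not given in the sources used here.

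Counts were tested with edgeR 4.0.16 (R 4.3.3): TMM, filterByExpr by group, 1 quasi-likelihood fit of 15 libraries and Benjamini-Hochberg adjustment over 21821 genes at 0.05. SE is |log2 fold change|/√F. The test was tried on simulated data. Levels are TMM-scaled CPM, and 3 reads equal at most 0.0526 CPM. Within groups, chi-square per degree of freedom showed no duplicate library. The members and lists were chosen with earlier results of these data known, and 1 further item is not reported here. Named pathway genes were the 4 with the smallest p past the threshold per list; the others named, and genes called only under an alternative, were chosen after their values were seen. Positions come from GENCODE M21 and promoters from RefSeq GRCm38.p6, with entries for 4 of 6 members. Replicate numbers, taken from the labels, correlated above 0.1 in every pair only for levodopa and control (0.286 to 0.801). Unmatched numbers correlated there too, at 0.533 for levodopa 1 with control 3 and 0.599 for levodopa 3 with control 1. Unmatched pairs that held a library 2 ran from -0.515 to -0.631. The numbers are therefore not shown to pair, and a replicate block changed no call for levodopa against controls. Alternatives were RLE, upper quartile, no filter, 5 CPM in 3 libraries, DESeq2 1.42.0, compared groups only, the block, each library left out, and control 2 and levodopa 2 left out.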

Additional observations from a re-analysis of the deposited data

How the results depend on the processing

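None of the 6 genes passed in any comparison that their choice did not use, under any alternative or with any library of the compared groups left out. With the filter of 5 CPM in 3 libraries Dio3 was not tested. Counts of other pathway genes moved. Under DESeq2 they were 1 for MPTP and 1 for levodopa against controls (Ttr, fell in both), 5 for the low and 2 for the high dose against MPTP and 2 for the low dose against controls. The 5 CPM filter gave 2 for the high dose against MPTP. Fits of only the compared groups gave 11 (low against MPTP), 13 (high against MPTP) and 0 (low against controls). Without control 2 and levodopa 2 the counts were 12, 8 and 2, and 1 for the high dose against controls. With each library left out in turn they ran from 1 to 3 (low against MPTP), 0 to 1 (high against MPTP) and 0 to 1 (low against controls). The replicate block called 2, 1 and 0 genes in these comparisons, and 0 for levodopa against controls. Of these alternatives, only the fit without control 2 and levodopa 2 has the share of all genes called beside it. Nothing is read from the other counts.

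The sign of some log2 fold changes of members reversed. Thra for levodopa against controls was 0.00895 with upper-quartile normalization. With the replicate block Thrb for MPTP against controls was 0.005297 and Hr for levodopa against controls was 0.02944. Without control 2 and levodopa 2, Hr for MPTP against controls was 0.2493, and for levodopa against MPTP Dio3 was 0.3483, Thrb 0.1454 and Klf9 -0.1862. In that setting levodopa against controls gave Dio2 -0.1321, Thra 0.02573 and Hr 0.2508, and the high dose against controls gave Klf9 0.08078.

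Leaving out 1 library at a time gave these ranges. For MPTP against controls Thrb ran from -0.4155 to 0.3783 and Hr from -1.19 to 0.2491. For levodopa against MPTP Dio3 ran from -1.458 to 0.4818, Thra from -0.006774 to 0.16, Thrb from -0.5423 to 0.1452 and Klf9 from -0.1864 to 0.4585. For levodopa against controls Dio2 ran from -0.06917 to 0.3165, Dio3 from -0.8561 to 2.106, Thra from -0.05476 to 0.04471, Thrb from -0.6245 to 0.2577, Hr from -0.8272 to 1.045 and Klf9 from -0.4716 to 0.1748. For inhibitor contrasts Klf9 ran from -0.07549 to 0.315 (low against controls), -0.3712 to 0.08076 (high against controls) and -0.0893 to 0.2538 (high against MPTP). Dio2 ran from -0.05306 to 0.3103 (high against controls) and Hr from -0.05965 to 0.09333 (high against low). The cause was not tested. Dio3 had only 2 to 32 reads in each of the 9 libraries without inhibitor, which were the deeper ones.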

Other observations

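Genes of the thyroid axis varied between libraries of 1 group. Tshb, the beta subunit of thyrotropin, had 55 reads in control 2 and 48 in levodopa 2, the libraries with the highest cerebellum markers, and 0 to 7 reads in the other 13. Cga, the alpha subunit it shares with other pituitary hormones, had 56 reads in low-dose 2 and 49 in high-dose 1 against 0 to 12 elsewhere, so the libraries high in one were not those high in the other. Trh, the hypothalamic releasing hormone, was at 0.312 CPM in control 2 and 0.0644 CPM in levodopa 2, and from 3.84 to 63.9 CPM in the other 13. Its receptor gene Trhr was also lowest in these libraries, at 0.312 and 0.676 CPM against 4.86 to 11.7 CPM.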
